A study of Mus musculus with 20 samples.

Results

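The genes described here are Gxylt1, Pole2, Srp54b and Ush1c, whose levels jump or spread widely between single libraries of mouse hypothalamus, together with Gxylt2, Srp54a and Srp54c, the close relatives of 2 of them. They are 7 of the 53801 genes in the count tables. They were selected on their CPM (counts scaled to a common library total) in each single library: Gxylt1 and Pole2 because their libraries fall into a low and a high class, and Srp54b and Ush1c because they spread widely. These choices used these same libraries, so the levels and changes of these 4 genes are a description and carry no test. Gxylt2, Srp54a and Srp54c were listed as relatives, and their changes were tested.

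Total RNA of the hypothalamus, depleted of ribosomal RNA, was sequenced as 20 libraries from mice housed in 12 h of light and 12 h of darkness. KO mice (named MADIN) lacked both Magel2 and Ndn and were sampled 6 h after light on (KO_day) or 18 h after light on (KO_night). WT mice were C57BL/6J and were sampled at the same times (WT_day and WT_night), so that each of the 4 groups held 5 libraries. The genotype field of the KO libraries is worded as a knockdown, while the title and design of the series speak of a deletion and a double knockout. The strain background of the KO mice and the age and sex of all mice are not given in the sources used here, and nothing says that the libraries came from separate animals. All p-values therefore measure the spread between these libraries, which may be technical in part.

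Library totals ran between 32066289 and 48697647 counts. Ndn, one of the deleted genes, was at 0.248 to 1.01 CPM in the KO libraries and at 239 to 346 CPM in 9 of the WT libraries. The library labelled WT_day 3 had 31.0 CPM of Ndn and 2.16 CPM of Magel2, which is 11.3% and 12.4% of what the remaining WT libraries averaged. The KO libraries had at most 1.01 CPM of Ndn and 0.182 CPM of Magel2. WT_day 3 thus goes against its label but is not at the KO level either. WT_night 1, 2 and 3 stood apart in tissue markers: 4 markers of thalamus summed to 514 to 630 CPM in them, against 297 to 480 CPM in the other 17 libraries, and 10 markers of hypothalamus summed to 747 to 863 CPM, against 924 to 1235 CPM. In 6 libraries (KO_day 1 and 2, KO_night 1, 2 and 3, and WT_night 1) the time field of the labels contradicts the title, from which the times used here were taken, except for KO_day 5, whose title gives no time. The changes of Gxylt1, Pole2, Srp54b and Ush1c are also given without WT_day 3, without WT_night 1, 2 and 3, and with the times of the time field.

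The products of these genes do unrelated work. The signal recognition particle is a ribonucleoprotein, built on the 7SL RNA, that catches ribosomes making secreted and membrane proteins and carries them to the endoplasmic reticulum. Srp54 is its GTPase subunit, which binds the signal peptide, and in the mouse it is encoded by the neighbouring copies Srp54a, Srp54b and Srp54c. Pole2 encodes the second largest subunit of DNA polymerase epsilon, the leading-strand replicase, and is normally a gene of dividing cells, while most hypothalamic cells no longer divide. Gxylt1 and Gxylt2 encode the glucoside xylosyltransferases that add xylose to O-linked glucose on the epidermal growth factor-like repeats of Notch receptors. Ush1c encodes harmonin, the scaffold that joins the cadherins and the myosin of the hair bundle in the inner ear and is mutated in Usher syndrome.

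In their coding sequence the copies of Srp54 are almost the same, and few coding bases tell one of them from the others. The coding sequences of Srp54a and Srp54b (GENCODE M21 transcripts on GRCm38) were identical over all 1512 bases, and that of Srp54c differed from both at 6 bases, an identity of 99.6%. Counted from the first base of the start codon, the bases that set Srp54c apart from Srp54a were T501C, T945C, G946A, T965G, A1197T and G1249A. The stretch from coding base 935 to 994 holds 3 of the 6 and is given here for each copy, with the bases that differ in capitals.
Srp54a: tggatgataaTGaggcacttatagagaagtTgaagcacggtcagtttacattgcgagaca
Srp54b: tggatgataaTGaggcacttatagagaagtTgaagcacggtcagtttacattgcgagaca
Srp54c: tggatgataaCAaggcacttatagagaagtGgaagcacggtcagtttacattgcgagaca
For each copy the transcript with the longest coding sequence was cut into 50-base words. Every word of the Srp54a transcript, 99.8% of those of Srp54b and 90.3% of those of Srp54c also occur in a transcript of another copy. A read inside such a stretch cannot be given to 1 copy, and how reads with several matches were counted is not given in the sources used here. The Srp54a transcript used has 1515 bases, nearly all of them coding, while the annotated exons of Srp54a cover 5325 bases. Exon parts outside the transcripts used and the introns of the copies were not compared. The other genes share less: 19.3% of the words of the Gxylt1 transcript recur in the processed pseudogene Gm11821, 11.8% of those of Pole2 in the overlapping gene Gm49384, 2.41% of those of Ush1c in Gm9860 on its opposite strand and 1.98% of those of Gxylt2 in other genes. Between Gxylt1 and Gxylt2 the aligned coding sequences were 64.4% identical, and Gm11821 had 0 to 3 counts in each library.

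**Figure D1:**
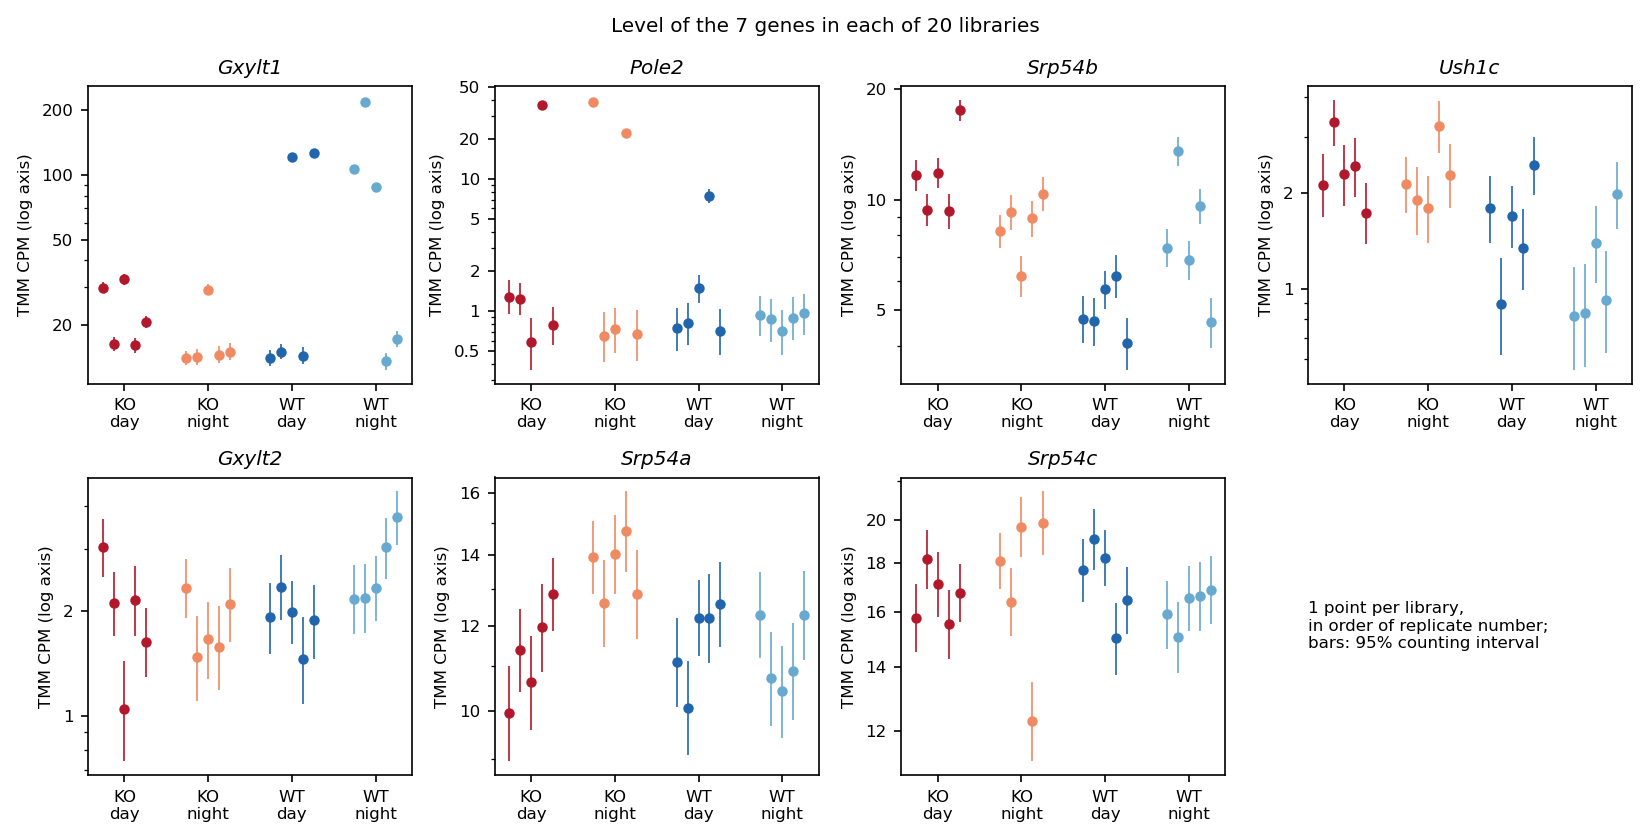
Level of each of the 7 genes in each library, in TMM-scaled CPM on a log axis, with 1 point per library and bars for the 95% exact Poisson counting interval. KO groups stand left of WT groups. Gxylt1 has 5 WT libraries at 88.2 to 219 CPM above all others, and Pole2 has 4 libraries at 7.46 to 38.2 CPM above all others, while Srp54a and Srp54c stay within 9.95 to 19.9 CPM.

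Gxylt1 (ENSMUSG00000036197, chromosome 15, 93239742 to 93275179, minus strand, GRCm38) had a low and a high class among the WT libraries and a low class alone in KO. In KO_day it was at 29.8, 16.3, 32.6, 16.1 and 20.6 CPM and in KO_night at 14.1, 14.2, 29.1, 14.6 and 15.03 CPM. In WT_day it was at 14.1, 15.04, 121, 14.4 and 127 CPM and in WT_night at 106, 219, 88.2, 13.6 and 17.2 CPM. Thus 5 libraries, WT_day 3 and 5 and WT_night 1, 2 and 3, were high, the other 15 were low, and none of the 10 KO libraries was high. Of the 5 low WT libraries, 4 lay inside the KO range and WT_night 4, at 13.6 CPM, just below it. The lowest high library, WT_night 3 at 88.2 CPM (95% exact Poisson counting interval 85.2 to 91.2), was 2.70-fold above the highest low library, KO_day 3 at 32.6 CPM (30.8 to 34.5). Within the low class KO_day 1, KO_day 3 and KO_night 3, at 29.1 to 32.6 CPM, stood above the other 12, at 13.6 to 20.6 CPM. In a bulk sample, fewer cells of a type and less RNA per cell cannot be told apart.

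The fitted change of Gxylt1 in KO against WT was -1.85 ± 0.458 on the log2 scale (SE derived from the F value of the fit, 20 libraries). Without the library labelled WT_day 3 it was -1.62, and without WT_night 1, 2 and 3 it was -0.58. The night minus day change was 0.10 ± 0.449 with all libraries and -1.16 without WT_night 1, 2 and 3, and the difference of the KO effect at night and by day was -1.01 ± 0.899, and 1.52 without them. Of the high libraries, WT_night 1, 2 and 3 are those with the highest summed thalamus markers, at 534, 514 and 630 CPM, and WT_day 3 and WT_day 5, also high in Gxylt1, had 442 and 463 CPM, inside the range of the other libraries. The part of these markers in the level of Gxylt1 was not tested. Without WT_day 3 the night minus day change was 0.33 and the difference between the KO effects -1.48. With the times of the time field the 3 changes were -1.90, 0.10 and -0.51.

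Gxylt2 (ENSMUSG00000030074, chromosome 6, 100704734 to 100810913, plus strand), the paralog of Gxylt1, showed no such classes. It was at 3.04, 2.10, 1.05, 2.15 and 1.63 CPM in KO_day, at 2.33, 1.48, 1.66, 1.58 and 2.10 CPM in KO_night, at 1.92, 2.34, 1.99, 1.46 and 1.88 CPM in WT_day and at 2.16, 2.18, 2.33, 3.04 and 3.70 CPM in WT_night. All groups overlapped, and the libraries high in Gxylt1 lay at 1.88 to 2.33 CPM of Gxylt2, in the middle of its range. Its change in KO against WT was -0.25 ± 0.147 (adjusted p = 0.362, edgeR quasi-likelihood test with Benjamini-Hochberg adjustment over 22181 genes), its night minus day change was 0.18 ± 0.147 (adjusted p = 0.681) and the difference between the KO effects was -0.59 ± 0.295 (adjusted p = 0.241).

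Pole2 (ENSMUSG00000020974, chromosome 12, 69201773 to 69228195, minus strand) was low in most libraries, with a median of 0.880 CPM, and far higher in single ones. In KO_day it was at 1.29, 1.24, 0.580, 36.3 and 0.784 CPM, and in KO_night at 38.2, 0.653, 0.728, 22.3 and 0.669 CPM. In WT_day it was at 0.742, 0.817, 1.49, 7.46 and 0.708 CPM, and in WT_night at 0.932, 0.868, 0.707, 0.893 and 0.962 CPM. The 4 high libraries were KO_day 4, KO_night 1, KO_night 4 and WT_day 4, so that every group but WT_night had a high library, and all groups overlapped in range. The gap between the classes was 5.02-fold. The lowest high library was WT_day 4 at 7.46 CPM (95% counting interval 6.59 to 8.43, 261 counts), and the highest low one was WT_day 3 at 1.49 CPM (1.16 to 1.87, 71 counts). No library was high in both Pole2 and Gxylt1.

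The fitted change of Pole2 in KO against WT was 2.86 ± 0.838, and it was 1.35 without KO_day 4, 2.32 without KO_night 1, 2.71 without KO_night 4 and 3.45 without WT_day 4. Without the library labelled WT_day 3 it was 2.79, without WT_night 1, 2 and 3 it was 2.81, and with the time field 2.79. The night minus day change was -0.32 ± 0.864, which was 1.19 without KO_day 4 and 0.27 without WT_day 4, and the difference between the KO effects was 2.01 ± 1.72, which was 5.01 without KO_day 4, 0.93 without KO_night 1 and 0.80 without WT_day 4. These last 2 changes were -0.38 and 2.12 without WT_day 3, -0.27 and 1.92 without WT_night 1, 2 and 3, and -1.13 and 0.17 with the time field. Markers of cycling cells did not separate the high libraries: 5 of them (Mki67, Top2a, Ccnb1, Cdk1 and Birc5) summed to 3.45 CPM in KO_day 4, 2.79 in KO_night 1, 2.85 in KO_night 4 and 2.35 in WT_day 4, within the 2.04 to 4.50 CPM of all 20 libraries, and 1 of the 5 averaged over 1 CPM. Their part in the level of Pole2 was not tested. Pole, the catalytic subunit of the same polymerase, was at 0.857 to 1.85 CPM, and the small subunits Pole3 and Pole4 were at 8.48 to 11.5 and 14.2 to 19.8 CPM.

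**Figure D2:**
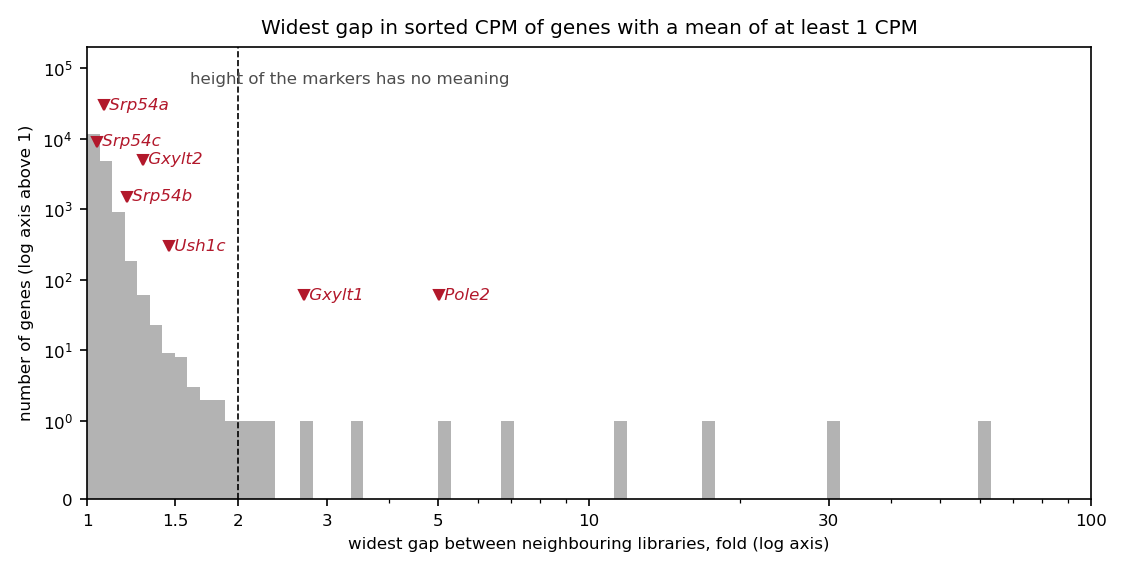
Distribution of the widest gap, as a fold on a log axis, between neighbouring libraries in the sorted CPM of each of 17624 genes, with at least 3 libraries on each side of the gap; the number of genes is on a log axis above 1. The dashed line marks the 2-fold threshold, and the red markers give the 7 genes, of which Gxylt1 (2.70-fold) and Pole2 (5.02-fold) lie beyond it.

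Sorted levels with a wide gap were rare. Among 17624 genes with a mean of at least 1 CPM, the widest gap with 3 or more libraries on each side had a median of 1.05-fold and a 99th percentile of 1.22-fold, and it reached 2-fold in 11 genes (0.0624%), 6 of them protein coding. Pole2 ranked 6th and Gxylt1 8th, values that were used to choose them. The other 9 were the deleted genes Ndn and Magel2, the lincRNA Gm32061, Gm36264, Gm47518, the mitochondrial tRNA gene mt-Tc, Platr9, and the pituitary hormone genes Cga and Gh. Gm32061, on chromosome 7 like Ndn and Magel2, splits the libraries by genotype as they do. Just inside the threshold lay Cga at 2.18-fold and Gh at 2.01-fold, and just outside it Prl at 1.99-fold and Gm47299 at 1.83-fold. The gaps of Ush1c (1.46-fold, rank 31), Gxylt2 (1.29-fold, rank 81) and Srp54b (1.20-fold, rank 226) did not reach the threshold, and those of Srp54a and Srp54c were 1.08-fold and 1.05-fold. Ush1c and Srp54b stand out by range instead, with 4.07-fold (rank 166) and 4.32-fold (rank 152) between the highest and the lowest library, against a median of 1.42-fold.

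Pole2 lies between Rn7s1 and Rn7s2, the mouse genes of the 7SL RNA on which the signal recognition particle is built, and most of its neighbours also had single high libraries, in part the same ones as Pole2 and in part others. This neighbourhood was chosen after its values were seen, and Pole2 was chosen for its high libraries. The shares of neighbours with a high library are therefore a description and no test. Of 16 genes, Pole2 and the 7SL genes included, with a mean of at least 1 CPM that start within 200000 bases of the pair, 12 had a library at 2 or more times their own median, against 0.834% of all 17624 genes. Klhdc2, a substrate receptor of a ubiquitin ligase, had a median of 116 CPM and was at 1032 CPM in KO_day 2, 239 CPM in KO_night 2 and 559 CPM in WT_night 3. Arf6, a small GTPase of endosomal traffic, had a median of 24.5 CPM and was at 55.6 CPM in KO_day 1, 43.0 CPM in WT_day 1 and 663 CPM in WT_day 4. Nemf, a factor of ribosome quality control, had a median of 86.2 CPM and was at 143 CPM in WT_day 5 and 581 CPM in WT_night 4. None of these peaks fell in a library high in Pole2 except that of Arf6 in WT_day 4.

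The highest libraries of the other coding neighbours were less far above their medians. Gm9887 was at 20.8 CPM in KO_day 3, 7.36 CPM in KO_day 4 and 5.17 CPM in KO_night 2 against a median of 3.39 CPM, and KO_day 4 was also high in Pole2. Gm49383 was at 70.7 CPM in WT_day 3 against 28.8 CPM, Rps29, a ribosomal protein gene, at 255 CPM in WT_night 5 against 118 CPM, and Klhdc1 at 27.3 CPM in WT_night 1 against 14.2 CPM. Of the 10 coding genes there, Pole2 included, 8 had a library at 2 or more times their median, against 0.834% of all 17624 genes. Some of the 10 overlap, such as Gm9887 with Arf6 and Gm49383 with Gm49384, so they are not all separate. Like the other shares around Pole2, this is a description and no test. The share of all genes above 1.5 times was not computed, so the counts at that level have no share beside them. At that level 9 of the 10 had such a library, and 16 of the 20 libraries were such a library for at least 1 of them. The exceptions were the gene Mgat2, at 23.3 to 33.4 CPM, and the libraries KO_day 5, KO_night 5, WT_day 2 and WT_night 2. The noncoding gene Gm47518 had 8 libraries at 55.6 to 117 CPM and 12 at 1.23 to 8.001 CPM, and only KO_night 1 was high in both Gm47518 and Pole2. The miRNA gene Gm47299, which overlaps Rn7s2 on the same strand and is uncertain for that reason, was at 15.2 CPM in KO_day 4 and 15.5 CPM in KO_night 1, both high in Pole2, with a median of 6.81 CPM and its highest level, 71.6 CPM, in WT_day 5. Rn7s1 ranged from 101 to 979 CPM and Rn7s2 from 233 to 1465 CPM. In the libraries high in Pole2, Rn7s1 was at 279 CPM in KO_day 4, 782 in KO_night 1, 269 in KO_night 4 and 123 in WT_day 4, below and above its median of 380 CPM.

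Gm49384, which overlaps the 3′ part of Pole2 on the same strand with 245 shared exonic bases, was at 15.7 CPM in KO_night 1, where Pole2 was highest, and at 7.83, 5.06 and 8.18 CPM in KO_day 4, KO_night 4 and WT_day 4. Its median was 7.08 CPM, so 1 of the 4 libraries was above 1.5 times that median. How reads in the overlap were counted is not given in the sources used here, so the levels of both genes are uncertain there.

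**Figure D3:**
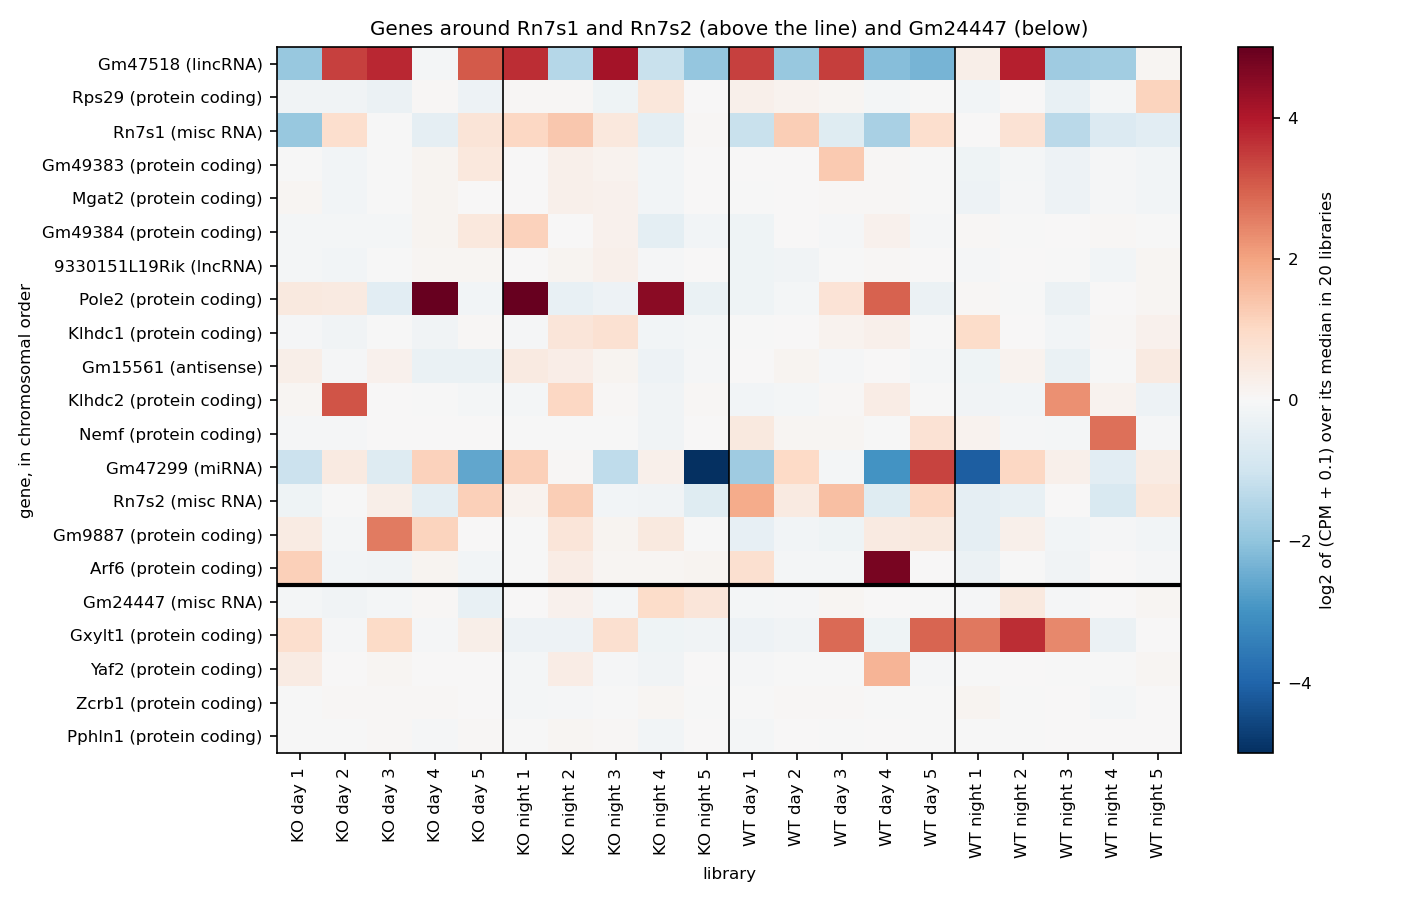
Level of each gene with a mean of at least 1 CPM that starts within 200000 bases of Rn7s1 and Rn7s2 (above the heavy line) or of Gm24447 (below it), as the log2 of CPM plus 0.1 over the median of that gene in 20 libraries, with colours capped at 5. Rows are genes in chromosomal order and columns are libraries, KO left of WT. The dark red cells of Pole2, Klhdc2, Nemf and Arf6 fall in different columns, apart from WT_day 4, which is high in both Pole2 and Arf6.

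Gxylt1 has a noncoding neighbour past its 3′ end, Gm24447, annotated as a miscellaneous RNA and present at 1037 to 2521 CPM. Gm24447 was highest in KO_night 4 and KO_night 5, both low in Gxylt1, and at 1277 to 1868 CPM in the 5 libraries high in Gxylt1, against a median of 1345 CPM. Its neighbours are given here among tested genes with a mean of at least 1 CPM. Past the 5′ end of Gxylt1, Yaf2, a polycomb-associated factor, had a median of 56.7 CPM and was at 183 CPM in WT_day 4, a library low in Gxylt1. The next genes, Zcrb1 and Pphln1, varied by 1.18-fold each over all 20 libraries. In the 5 libraries high in Gxylt1, Yaf2 was at 54.5 to 56.8 CPM, close to its median. On the other side Pdzrn4, a ubiquitin ligase gene, was at 167 and 188 CPM in WT_day 3 and 5 and at 210, 194 and 235 CPM in WT_night 1, 2 and 3, against 117 to 213 CPM in the libraries low in Gxylt1. Thus WT_night 3 was its highest library, and the 5 libraries overlapped the others.

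Srp54b (ENSMUSG00000112449, chromosome 12, 55155104 to 55189573, plus strand) was spread without a clear gap, and it was highest in KO by day. It was at 11.7, 9.40, 11.8, 9.29 and 17.5 CPM in KO_day and at 8.21, 9.25, 6.18, 8.89 and 10.4 CPM in KO_night. In WT_day it was at 4.73, 4.66, 5.69, 6.21 and 4.06 CPM, and in WT_night at 7.40, 13.6, 6.83, 9.61 and 4.63 CPM. The groups KO_day and WT_day did not overlap, a form found in 2.72% of the 22181 genes tested, and since these levels chose the gene nothing is read from it. KO_night lay inside the range of WT_night, with WT_night 2 above every KO_night library. The fitted change in KO against WT was 0.63 ± 0.149, night minus day was 0.12 ± 0.149, and the difference between the KO effects was -1.21 ± 0.299, and -0.72 with the times of the time field, so that the difference of KO and WT was larger by day. Without the library labelled WT_day 3 the 3 changes were 0.66, 0.15 and -1.28, and without WT_night 1, 2 and 3 they were 0.75, 0.0014 and -0.97. With the time field the first 2 were 0.58 and 0.31.

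Srp54a (ENSMUSG00000073079, chromosome 12, 55080262 to 55115367) and Srp54c (ENSMUSG00000079108, 55230168 to 55263836), on either side of Srp54b on the same strand, varied far less. Srp54a was at 9.95, 11.4, 10.6, 12.0 and 12.9 CPM in KO_day, at 13.9, 12.6, 14.01, 14.7 and 12.9 CPM in KO_night, at 11.1, 10.1, 12.2, 12.2 and 12.6 CPM in WT_day and at 12.3, 10.7, 10.4, 10.9 and 12.3 CPM in WT_night. KO_night lay above WT_night without overlap, as 5.06% of all genes tested did in either direction, but no change of Srp54a passed: 0.12 ± 0.0536 in KO against WT (adjusted p = 0.228), 0.11 ± 0.0536 at night against day (adjusted p = 0.423) and 0.30 ± 0.107 for the difference between the KO effects (adjusted p = 0.118, all by edgeR's quasi-likelihood test). Srp54c was at 12.3 to 19.9 CPM in KO and at 15.01 to 19.1 CPM in WT, with KO_night 4 lowest, and its changes were 0.02 ± 0.0649, -0.02 ± 0.0649 and 0.15 ± 0.130 (edgeR adjusted p = 0.900, 0.927 and 0.526).

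The counts of the copies were also added up, since a read from a shared stretch cannot be given to 1 copy. The sum of the 3 copies was 35.9 to 47.2 CPM in KO (mean 39.7 ± 3.31, SD, n = 10) and 33.1 to 39.4 CPM in WT (35.0 ± 2.05, n = 10). Srp54b made up 24.1 to 37.2% of that sum in KO_day and 15.5 to 24.8% in KO_night, against 12.3 to 18.6% in WT_day and 13.7 to 34.5% in WT_night. Srp54a and Srp54c together were at 25.7 to 33.7 CPM in KO and at 25.8 to 30.5 CPM in WT. KO_day 5 had the largest sum, 47.2 CPM, and the largest share of Srp54b, 37.2%, and Srp54a and Srp54c were inside their usual range in it. These are shares of counts, not set against the lengths of the copies.

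**Figure D4:**
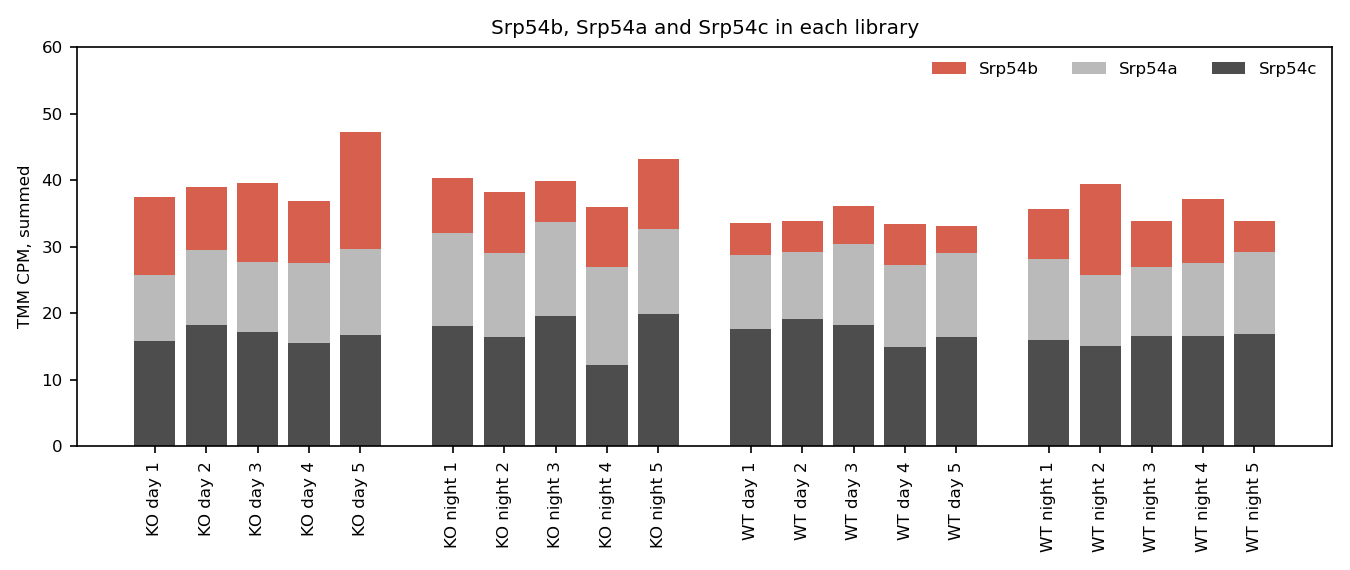
TMM-scaled CPM of Srp54b (red), Srp54a (light grey) and Srp54c (dark grey) stacked in each library, KO groups left of WT groups. The grey parts together stay between 25.7 and 33.7 CPM, and the red part ranges from 4.06 CPM in WT_day 5 to 17.5 CPM in KO_day 5.

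The genes between the copies with a mean of at least 1 CPM passed no test by edgeR. Fam177a, between Srp54a and Srp54b, had a median of 2.52 CPM, and 1700047I17Rik2, between Srp54b and Srp54c, one of 2.44 CPM. Neither passed in any contrast, with KO against WT changes of 0.19 ± 0.0985 (adjusted p = 0.292) and 0.12 ± 0.152 (adjusted p = 0.717, edgeR).

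Ush1c (ENSMUSG00000030838, chromosome 7, 46195350 to 46238503, minus strand) was low everywhere and mostly higher in KO. It was at 2.12, 3.34, 2.29, 2.43 and 1.73 CPM in KO_day and at 2.13, 1.90, 1.79, 3.25 and 2.28 CPM in KO_night. In WT_day it was at 1.79, 0.896, 1.70, 1.34 and 2.45 CPM, and in WT_night at 0.822, 0.840, 1.39, 0.923 and 1.98 CPM. These values rest on 30 to 143 counts, KO and WT overlapped, and WT_day 1, WT_day 5 and WT_night 5 lay within the KO range. Of the 7 genes none had KO and WT levels without overlap, a form that 0.0406% of all genes tested had. The fitted change in KO against WT was 0.73 ± 0.175, night minus day was -0.27 ± 0.175 and the difference between the KO effects was 0.39 ± 0.350. The 3 changes were 0.74, -0.26 and 0.35 without the library labelled WT_day 3, and 0.59, -0.12 and 0.10 without WT_night 1, 2 and 3. With the time field they were 0.77, 0.10 and 0.66, so the night minus day change turned its sign. Ush1c lies on the same chromosome as the deleted genes Magel2 and Ndn. Its 6 flanking genes, the 3 nearest on each side among tested genes with a mean of at least 1 CPM, passed no test by edgeR. Among them are the subunits Kcnj11 and Abcc8 of the ATP-sensitive potassium channel. Abcc8, the nearest of these before it, had a change of 0.04 ± 0.0758 (edgeR adjusted p = 0.833) and Kcnc1, the nearest of these after it, one of 0.10 ± 0.0480 (0.237).

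**Figure D5:**
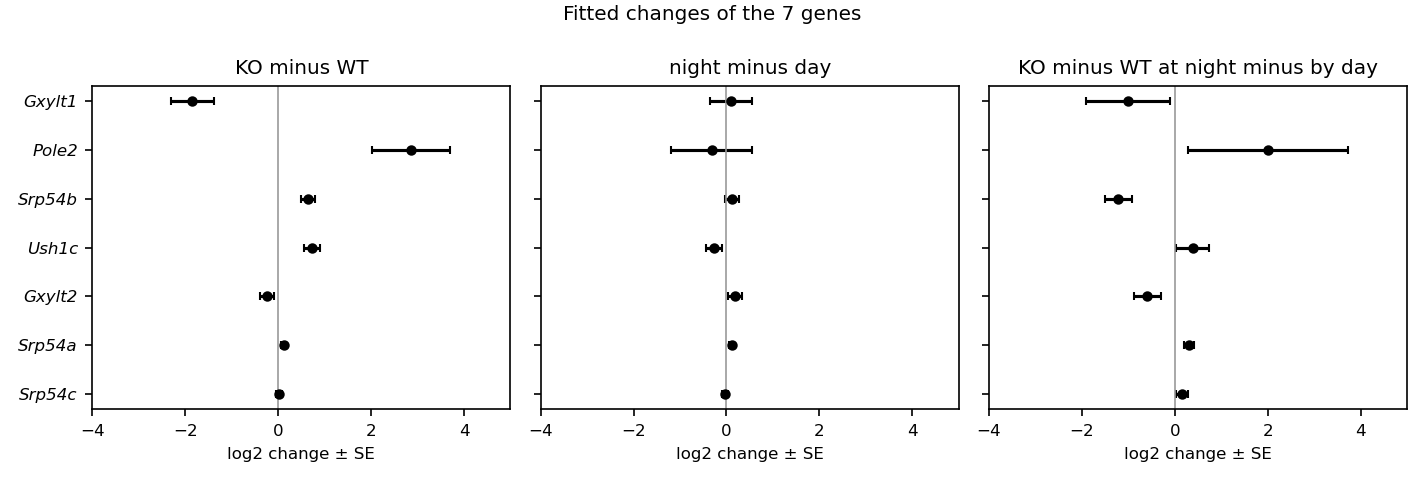
Fitted log2 change with its standard error, derived from the F value of the fit, for the 7 genes. The panels are KO against WT, night against day, and the KO effect at night minus that by day. The widest bars are those of Pole2 (2.86 ± 0.838 in KO against WT) and Gxylt1 (-1.85 ± 0.458), whose values come from a few libraries each, and the 3 relatives lie between -0.59 and 0.30 in every panel.

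Over all 22181 genes tested, 175 rose and 116 fell in KO against WT at an adjusted p under 0.05 (1.31%), 17 rose and 9 fell at night against day (0.117%), and 0 passed for the difference between the KO effects (0.0%) by edgeR, where 4910 had an unadjusted p under 0.05 and DESeq2 called 1215. Gxylt2, Srp54a and Srp54c passed in none of the 3 contrasts, and in none of their 252 values under other settings, where the lowest adjusted p was 0.0751. None of the 24 genes with a mean of at least 1 CPM that flank Gxylt1, Pole2, Srp54b or Ush1c passed in any contrast, the closest to the threshold in KO against WT being Pdzrn4, before Gxylt1, with an adjusted p of 0.0838 in KO against WT by edgeR.

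Genes that work with the 7 were followed as lists. None of the 66 listed genes that passed the filter on low counts passed in KO against WT or for the difference between the KO effects by edgeR's quasi-likelihood test, and 2 passed at night against day. DESeq2 called 5 in KO against WT (Cyfip2, Gins2, Notch1, Pcdh15 and Pold2) and 4 for the difference (Adgrv1, Notch1, Notch3 and Prim1). Over all genes DESeq2 also called far more than edgeR in both contrasts, as given in the closing section, so nothing about the lists is read from these calls. Among 12 genes of the signal recognition particle, its receptor and the translocon, the median KO change was 0.02 and that of all genes -0.00. Srp19, which helps to load Srp54 onto the 7SL RNA, fell by 0.22 at night (edgeR adjusted p = 0.0493), and the other 11 did not pass. Srp68 and Srp72, the large subunits, were at 24.8 to 29.7 and 72.7 to 91.0 CPM in all libraries, narrower ranges than the 4.32-fold of Srp54b.

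Among 24 subunits of the replisome and its polymerases none passed by edgeR, while Gins2, Pold2 and Prim1 are among the DESeq2 calls above, with median changes of 0.02 in KO, -0.07 at night and 0.09 for the difference between the KO effects. Pcna, the sliding clamp, was at 14.4 to 21.4 CPM, and Mcm10, which helps to activate the helicase, at 0.476 to 1.12 CPM. Among 12 genes of Notch and its O-linked sugars the median KO change was 0.05. Poglut1, which adds the glucose that Gxylt1 extends, was at 45.6 to 54.8 CPM, and Xxylt1, which adds the next xylose, at 16.8 to 20.5 CPM. Notch1, the receptor, rose by 0.18 at night (edgeR adjusted p = 0.0345), and the other 11 did not pass.

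These calls depended on single libraries. Srp19 passed in 3 of the 20 fits that left out 1 library, those without KO_day 2, KO_night 2 and KO_night 5, and Notch1 in 7, those without KO_day 4, KO_day 5, KO_night 2, KO_night 5, WT_day 4, WT_day 5 and WT_night 5. With the times of the time field neither passed.

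Among 14 genes of the Usher complex and the related brush border complex, 12 passed the filter and none passed by edgeR, while DESeq2 called Pcdh15 and Adgrv1 as given above. Cdh23 and Pcdh15, the cadherins that harmonin binds in hair cells, were at 27.7 to 35.0 and 310 to 568 CPM, and Myo7a, the myosin, at 20.3 to 25.4 CPM. Anks4b and Cdhr5 of the brush border were at 0.105 CPM or less. Among 7 genes known to vary between C57BL/6 substrains, Nnt was at 0.0286 CPM or less in KO and WT alike, and none of the other 6 passed by edgeR, while DESeq2 called Cyfip2 in KO against WT. Ide ranged from 42.0 to 88.3 CPM and its neighbour Fgfbp3 from 2.66 to 7.21 CPM.

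Per kilobase of annotated exon, the median level over the 20 libraries was 4.59 CPM for Srp54c, 2.50 for Gxylt1, 2.29 for Srp54a, 1.89 for Srp54b, 0.480 for Ush1c, 0.306 for Pole2 and 0.247 for Gxylt2. Neighbours in this order overlapped in their ranges, except Srp54b, at 0.899 to 3.89 CPM per kilobase, and Ush1c, at 0.214 to 0.869. Of 187 coding genes that lie in an intron of a coding gene on the same strand, 186 had 0 counts in every library. Among 531 coding genes that lie anywhere inside a coding gene on the opposite strand, not only in its introns, 28 did. Whether reads from introns were counted is not given in the sources used here. Counting over exons alone would not by itself leave the 186 genes at 0. The order above divides by exon length, so it need not hold if reads over whole genes were counted. Gxylt2, for example, has 8510 exonic bases in a span of 106180, and Pole2 has 2881 in 26423. An order by whole-gene length was not computed.

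The genes most like each of the 4 chosen genes over the 20 libraries were found by Pearson's r of log2 CPM. For Gxylt1 they were Ikzf1, a lymphoid transcription factor (r = 0.77, Spearman's rho 0.62), Gm39244, Adcy10, D030068K23Rik and Adam32, and the least like were Suox, sulfite oxidase (r = -0.79, rho -0.74), Glmp and Slc25a18. Ikzf1 ranged from 3.89 to 5.38 CPM. For Pole2 the most like were Eml3 (r = 0.78, Spearman's rho 0.57), Gm12500, Gm43034, Thap3 and Rnf123, and the least like Pcdha1 (r = -0.74, rho -0.43), Zfp120 and Lrig2. Eml3 ranged from 5.90 to 8.03 CPM.

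For Srp54b the most like were Mest, an imprinted gene (r = 0.74, rho 0.79), Dag1, dystroglycan, Actn4, an actin crosslinker, Gm47938 and Gm12404, and the least like Cdyl (r = -0.76, rho -0.78), Rbm39 and Rnf20. For Ush1c they were Avp, the vasopressin precursor (r = 0.73, rho 0.83), Angptl6, Gm18908, Gm11769 and Gm26546, and the least like 4930447N08Rik (r = -0.76, rho -0.68), Ift81 and Gm32061. Gm18908 and Gm32061 lie on chromosome 7, as the deleted genes do, and Gm32061 splits the libraries by genotype. Avp ranged from 150 to 305 CPM. All r values are the highest or lowest over the other genes with a mean of at least 1 CPM, share the same libraries and their composition, and describe these 20 libraries only.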

How the data were processed

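Gene counts of 20 hypothalamus libraries were used as deposited. The authors made these counts with HISAT2 and featureCounts on mm10, per the submitters' processing notes. Versions, annotation, strand setting and the treatment of reads with several matches are not given in the sources used here. In the deposited file of WT_night 3 the columns are set out differently, and its values are counts as in the others. The titles number 2 WT_day libraries alike, and WT_day 5 was given the missing number.

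Levels are CPM with TMM scaling (factors 0.945 to 1.08). Totals of 32066289 to 48697647 set the precision, and intervals are exact Poisson at 95%, covering counting error only. Of the 53801 genes, 53620 matched GENCODE M21 and 22181 passed filterByExpr (minimum count 10). They were fitted in edgeR 4.0.16 (R 4.3.3, limma 3.58.1) by the quasi-likelihood test over 4 groups, for KO minus WT, night minus day and the interaction, with Benjamini-Hochberg adjustment over all 22181 genes at a threshold of 0.05. The SE of a change is its absolute log2 value divided by the square root of its quasi-likelihood F value. It was not estimated directly and is a rough guide for genes with a low and a high class. On simulated counts 100% of 100 genes changed by 1 and 92% of 100 changed by 0.5 (log2) were recovered in KO against WT over 21929 genes, with 3.03% of calls false. The simulated counts were drawn independently around 1 mean per gene, and only genes with a mean of at least 1 CPM were changed. They hold no shifts of whole libraries and no library that goes against its label, so these rates need not hold for the real libraries.

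Library pairs within groups differed beyond counting noise (chi-square per degree of freedom 5.58 to 53.7). Of 30 pairs of libraries with equal replicate numbers, 3 had a correlation over 0.1 once group means were removed. The highest were 0.303 for WT_night 4 with KO_day 4 and 0.217 for WT_night 3 with KO_day 3. Whether such pairs shared handling was not tested. Alternatives were other scalings, DESeq2 1.42.0, no filter, a replicate block, the time field, the 14 libraries with agreeing time labels and each library left out. The set without WT_night 1, 2 and 3 was chosen after seeing the data.

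The genes named are the 7, the 3 nearest tested genes with a mean of at least 1 CPM on each side of the 4 chosen ones, the 5 genes most and the 3 least like each of those 4, and 69 genes of 5 lists. The genes around 7SL and Gm24447 were added after their values were seen. The members and lists were chosen with earlier results of these data known.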

Additional observations from a re-analysis of the deposited data

Results flagged for a closer look

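In 3 of the 28 sets of 5 libraries (7 genes in 4 groups) the gap between 1 library and the other 4 took up more than 0.71 of the whole range. All 3 are sets of Gxylt1 and Pole2, which were selected on these same levels, so this is a description and no test. Gxylt1 in KO_night was at 29.1 CPM in KO_night 3, above the other 4 libraries at 14.1 to 15.03 CPM. Pole2 in KO_day was at 36.3 CPM in KO_day 4, above 0.580 to 1.29 CPM in the other 4. Pole2 in WT_day was at 7.46 CPM in WT_day 4, above 0.708 to 1.49 CPM in the other 4. WT_day 4 was also the highest library of Arf6 and Yaf2. Groups with more than 1 high library, such as Pole2 in KO_night and Gxylt1 in WT_day and WT_night, cannot be picked out this way.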

How the results depend on the processing

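The changes of the 7 genes were computed under 28 alternatives each, 588 values in all. The 252 values of Gxylt2, Srp54a and Srp54c were judged only by whether their adjusted p fell under 0.05, and none did. The values of the 4 chosen genes were judged by their size instead. Of these, 5 moved by more than 1 SD between libraries of a group on the log2 scale. They were Gxylt1 without WT_night 1, 2 and 3 (-0.58 in KO against WT, -1.16 at night, 1.52 for the interaction), Pole2 without KO_day 4 (interaction 5.01) and Srp54b with the time field (interaction -0.72). That SD is wide for Gxylt1 and Pole2, and smaller moves also mattered: with 1 library left out, the change in KO against WT, at night and for the interaction was -1.98 to -1.52, -0.23 to 0.35 and -1.52 to -0.35 for Gxylt1, and 1.35 to 3.45, -0.86 to 1.19 and 0.80 to 5.01 for Pole2, so both night changes turned their sign. With 1 library left out, the widest gap was 2.70 to 3.25-fold for Gxylt1, 5.02 to 14.99-fold for Pole2 (highest without WT_day 4), 1.20 to 1.31 for Srp54b, 1.46 to 1.504 for Ush1c, 1.13 to 1.30 for Gxylt2, 1.05 to 1.08 for Srp54a and 1.03 to 1.06 for Srp54c. The 11 genes with 2 classes became 7 at 3-fold, 27 at 1.5-fold and 17 with 2 libraries a side. Gxylt1, with a gap of 2.70-fold, dropped out at 3-fold, and Pole2 stayed.

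Counts over all genes moved widely, and the cause was not tested. The 291 genes in KO against WT were 81 with library totals, 1046 by DESeq2, 30 with the time field, 58 with agreeing time labels, 19 without WT_night 1, 2 and 3, and 47 (without KO_night 3) to 1265 (without WT_night 4) with 1 library left out. The 26 genes at night were 99, 214, 1, 126 and 164 in that order, 51 with no filter, and 11 (without WT_day 2) to 72 (without KO_night 2). The interaction (0 genes) gave 336 with library totals, 1215 by DESeq2, 105 with no filter, 1 without the 3 WT_night libraries and 0 to 1555 (without WT_night 4). Of the listed genes, 0 in KO against WT became 5 by DESeq2 and 0 to 4 with 1 library left out, 0 for the interaction became 4 and 0 to 7, and 2 at night became 1 with DESeq2's size factors, 0 with the time field, 1 with agreeing labels, 1 without the 3 WT_night libraries and 0 to 3 with 1 left out. The 5 and 4 listed genes called by DESeq2, of 66 tested, stand beside 1046 and 1215 of all 22181 genes.

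With the replicate block, 215 genes passed in KO against WT, 25 at night, 0 for the interaction, and 1 listed gene, Notch1, at night. The numbers share no source in the labels, and 4 of 20 libraries correlated best with a library of their own number. Depth limits the precision of Pole2 in its low class, at 21 to 71 counts, of Ush1c, at 30 to 143, and of Gxylt2, at 38 to 127.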
